A study of Mus musculus with 2 samples.

Results

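Dense runs of Arid1b peaks are stretches of the genome in which 5 or more peaks follow each other with no gap above 12500 bp. They were chosen by peak position alone, by sorting the authors' peak list and joining each peak to the one before it on the same chromosome. Of the 8318 peaks in the list, 1189 (14.3%) lay in 177 such runs. The other 7129 peaks formed 5250 shorter runs, among them 3905 single peaks. Peak positions and fold values come from the contrast that chose the runs, so all values below are descriptions and no test is given.

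Arid1b-bound chromatin of primary dental mesenchyme cells was immunoprecipitated and sequenced (ChIP-seq), with 1 Arid1b ChIP library and 1 input library made without antibody. Both libraries came from wild-type C57BL/6 mice, from cells of the apical portion of the first mandibular molar at postnatal day 3.5 to 7.5 that were cultured in medium with 10% serum. The series title and design text name Arid1a and Gli1-CreER;Arid1a fl/fl mice, whereas the labels of both libraries name wild type and the ChIP label names Arid1b. Those mice were not analysed here. Neither group was replicated, and the intervals given cover counting error only. RNA was not measured in these files, so the labelled cell type could not be checked by expression and no gene is called transcribed here.

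Arid1b is a large subunit of the BAF form of the SWI/SNF complex, which uses ATP to move or evict nucleosomes, and it takes the place of its paralogue Arid1a in part of these complexes. Homeobox genes encode transcription factors with a DNA-binding homeodomain. Members of the Dlx, Msx, Pax, Lhx and Pitx families act in the neural crest-derived mesenchyme of the jaw and tooth, while Hox genes pattern the trunk and limbs and are classically silent in the first pharyngeal arch, from which the jaw arises. Collagen, actin and myosin genes encode the matrix and contractile machinery of mesenchymal cells.

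Runs were grouped by the protein-coding genes that they overlapped or approached within 1 kb. A total of 75 runs with 534 peaks held a homeobox or other developmental regulator gene. Another 13 runs with 102 peaks held a matrix or cytoskeletal gene, and 89 runs with 553 peaks held neither. No run held genes of both kinds. Unless stated otherwise, peak counts and folds given for a gene are those of all peaks in its run, also those over 1 kb away. Runs reached 250 of 21887 protein-coding genes (1.14%), which is the background for the counts of genes below.

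The sequences that follow are the 250 bases before a RefSeq start site (GRCm38.p6, the assembly of mm10), 5' to 3' on the gene's strand, with each CG dinucleotide in capitals. They show promoters from large runs of each of the 3 gene groups, with a peak over or near the start. The first pair is Hoxa7, in the largest run, and Dlx2, whose promoter has many more CG dinucleotides.

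Hoxa7, chr6:52218574-52218823, minus strand: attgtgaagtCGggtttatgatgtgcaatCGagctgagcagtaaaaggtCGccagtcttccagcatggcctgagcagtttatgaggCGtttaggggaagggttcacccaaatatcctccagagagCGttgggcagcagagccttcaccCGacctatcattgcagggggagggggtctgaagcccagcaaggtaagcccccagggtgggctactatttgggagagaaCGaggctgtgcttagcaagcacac
Dlx2, chr2:71546755-71547004, minus strand: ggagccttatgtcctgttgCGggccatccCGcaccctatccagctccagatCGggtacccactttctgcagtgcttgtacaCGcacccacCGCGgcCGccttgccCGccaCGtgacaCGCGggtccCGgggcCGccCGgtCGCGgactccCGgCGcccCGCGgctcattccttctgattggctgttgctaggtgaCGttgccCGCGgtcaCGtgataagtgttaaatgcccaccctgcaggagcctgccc

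Hoxa7 had 7 CG dinucleotides in this window and a peak over its start with a fold of 5.26 (3.93 to 6.91). Dlx2, a homeobox gene of jaw mesenchyme, had 24, and a peak 439 bp from its start with a fold of 7.95 (6.29 to 9.93). A nearer and lower peak, with its summit 158 bp from the start of Dlx2, had a fold of 3.83 (2.75 to 5.20). The second pair comes from runs with a cytoskeletal or matrix gene: Myh9, the non-muscle myosin heavy chain IIA, and Adamtsl4, a secreted matrix protein.

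Myh9, chr15:77842176-77842425, minus strand: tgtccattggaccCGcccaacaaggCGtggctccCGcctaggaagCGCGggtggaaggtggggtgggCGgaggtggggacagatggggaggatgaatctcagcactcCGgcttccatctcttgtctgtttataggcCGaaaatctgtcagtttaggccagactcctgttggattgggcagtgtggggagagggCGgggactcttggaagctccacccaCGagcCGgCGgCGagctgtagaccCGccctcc
Adamtsl4, chr3:95687918-95688167, minus strand: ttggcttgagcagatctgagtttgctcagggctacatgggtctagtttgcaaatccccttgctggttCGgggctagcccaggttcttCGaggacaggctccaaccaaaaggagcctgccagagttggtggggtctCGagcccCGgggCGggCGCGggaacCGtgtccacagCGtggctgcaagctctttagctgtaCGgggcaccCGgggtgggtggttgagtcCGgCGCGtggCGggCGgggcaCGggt

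Myh9 had 14 CG dinucleotides and Adamtsl4 had 17. A peak over the upstream edge of the Myh9 window lay 238 bp from the start, with a fold of 4.34 (3.14 to 5.85). Nearer to that start, inside the gene, lay a peak 1390 bp wide with a fold of 4.18 (3.14 to 5.47). The nearest peak to the start of Adamtsl4 was 2 bp away, with a fold of 4.24 (3.08 to 5.69). The third pair comes from the other runs: Junb, a subunit of the transcription factor AP-1, and Irf2bp2, a transcriptional corepressor.

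Junb, chr8:84978749-84978998, minus strand: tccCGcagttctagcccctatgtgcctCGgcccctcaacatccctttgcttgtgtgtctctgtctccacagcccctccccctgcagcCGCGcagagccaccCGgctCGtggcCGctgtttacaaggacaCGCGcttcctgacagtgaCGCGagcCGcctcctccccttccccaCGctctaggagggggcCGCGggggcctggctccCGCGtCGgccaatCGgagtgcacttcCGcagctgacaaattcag
Irf2bp2, chr8:126593987-126594236, minus strand: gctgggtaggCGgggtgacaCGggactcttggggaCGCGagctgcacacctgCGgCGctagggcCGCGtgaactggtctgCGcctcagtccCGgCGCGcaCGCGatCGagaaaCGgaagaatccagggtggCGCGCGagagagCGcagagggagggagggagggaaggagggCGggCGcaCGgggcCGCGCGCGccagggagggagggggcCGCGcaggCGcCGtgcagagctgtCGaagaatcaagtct

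Junb had 20 CG dinucleotides and Irf2bp2 had 32, the most of the 6 promoters shown. The nearest peak to the start of Junb was 95 bp away, with a fold of 3.51 (2.53 to 4.75). At Irf2bp2 the nearest peak had a fold of 3.65 (2.58 to 5.01), with its summit 341 bp from the start. Another peak, inside Irf2bp2 and 526 bp from the start, had a fold of 4.42 (3.34 to 5.75).

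The 6 promoters do not rank by gene group. Promoter windows of 300 bases (250 before to 50 after the start) in the RefSeq table that overlapped a peak were also counted. The 59 such windows in developmental runs had a median GC share of 57.7% and a median of 18 CG dinucleotides. The 7 windows in matrix or cytoskeletal runs had 65.7% and 27, and the 102 windows in other runs had 65.3% and 27. The 2778 windows with a peak outside runs had 66.7% and 28, and all 32851 windows had 52.7% and 7. Promoters with a peak in developmental runs thus stood between all promoters and the other promoters with a peak. The homeodomain core TAATTA (either strand) was present in 5 of the 59 developmental windows (8.47%), in 0.980% of windows in other runs, in 1.19% of windows with a peak outside runs and in 5.29% of all windows. The TEAD motif GGAATG (either strand) was present in 4 of the 7 matrix or cytoskeletal windows, against 14.7% of all windows, a share that rests on few windows. The AP-1 motif TGANTCA was in 3.39% of developmental windows, 1 of the 7 and 7.84% of windows in other runs, against 7.81% of all. CCAAT was in 44.1%, 2 of the 7 and 33.3%, against 37.4%, and TATAAA in 10.2%, 2 of the 7 and 6.86%, against 13.6%. These are matches of letters and not binding sites.

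Within runs, peaks were packed far closer than the 12500 bp rule required. The median run spanned 10.7 kb (quartiles 6.70 and 15.5, range 2.57 to 76.6) with 6 peaks, and 20 runs had 10 or more. The median gap between neighbours was 366 bp, and 591 of the 1012 gaps (58.4%) were under 500 bp. Peaks covered 0.734 Mb of the 2.13 Mb that the runs spanned (34.4%). When peaks closer than 500 bp were counted as 1 region, only 27 of the 177 runs still had 5 or more. These were 11 developmental, 5 matrix or cytoskeletal and 11 other runs. At the other end, 12 runs became a single region, among them those at Msx1 with 9 listed peaks and Runx1 and Tfap2a with 8 and 6. A count of listed peaks is therefore a count of intervals and not of separate sites.

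**Figure D1:**
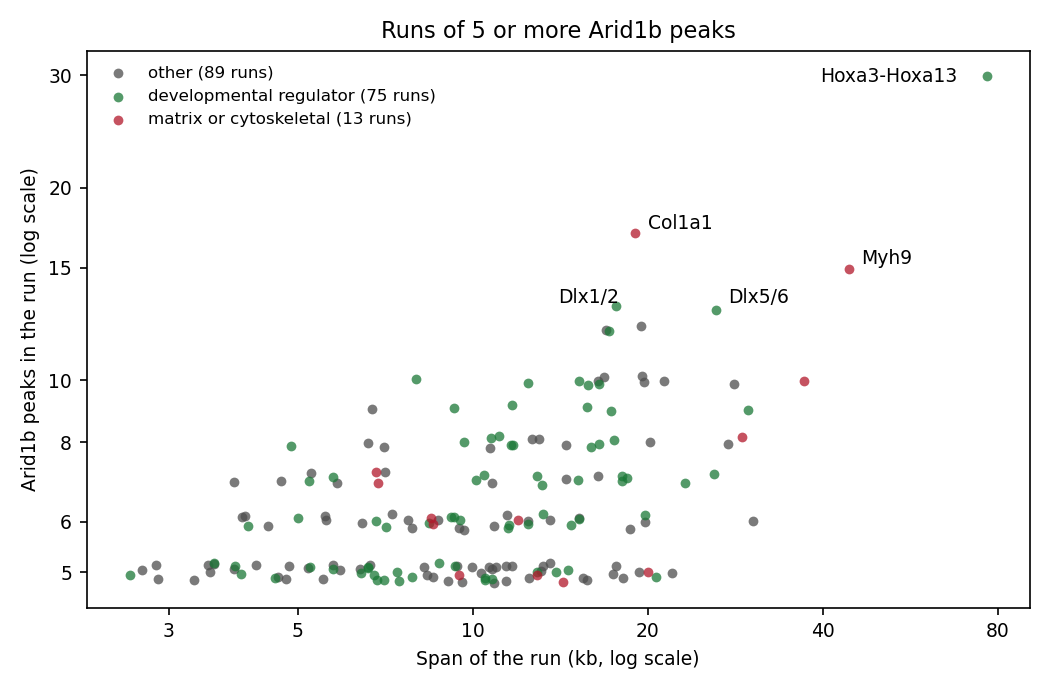
Listed Arid1b peaks per run (vertical, log scale, points shifted slightly to separate them) against the span of the run in kb (horizontal, log scale), 1 point per run and colours for the 3 gene groups. The run from Hoxa3 to Hoxa13 stands alone at 30 peaks over 76.6 kb, followed by Col1a1 with 17 peaks and Myh9 with 15.

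**Figure D2:**
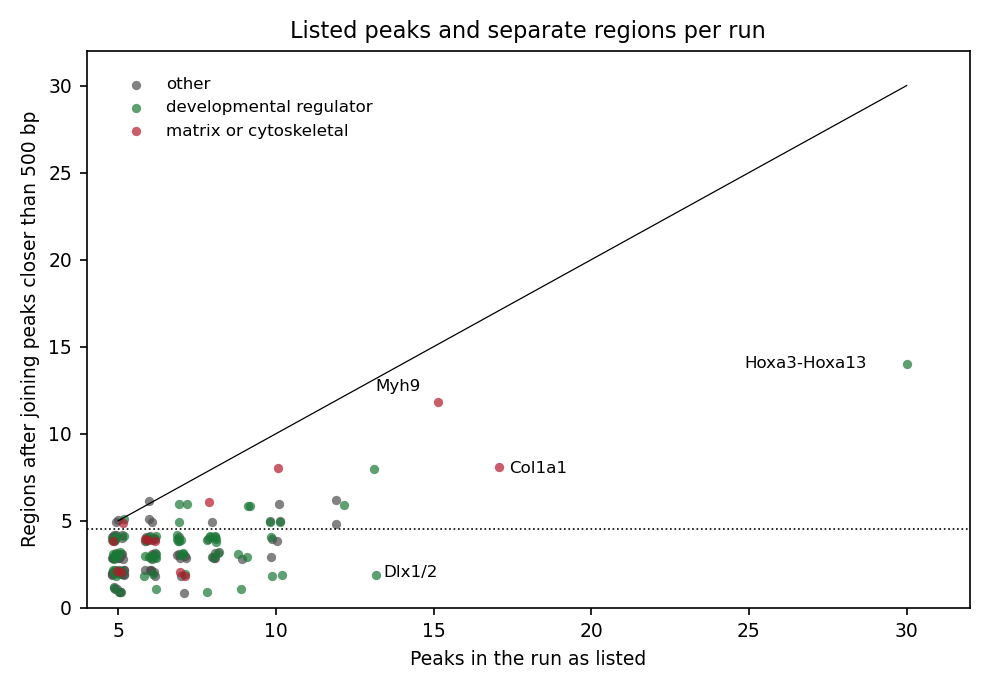
Regions left per run after joining peaks closer than 500 bp (vertical) against peaks as listed (horizontal), with colours for the 3 gene groups. The Hoxa run keeps 14 of 30 and the Myh9 run 12 of 15, whereas the run at Dlx1 and Dlx2 falls from 13 to 2.

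The median fold over input, the authors' value at each summit, was the same in runs and outside them. It was 3.72 in runs (quartiles 3.30 and 4.34) and 3.72 outside them (3.30 and 4.303), and 993 of the 1189 peaks (83.5%) had an interval that included the median of all peaks. Folds of at least 5 were found in 12.7% of peaks in runs (10.9 to 14.7, exact binomial 95% interval), 9.78% of peaks outside (9.10 to 10.5) and 10.2% of all peaks. Peaks in runs were wider, with a median of 366 bp against 299 bp. A width of 1 kb or more was found in 12.8% of peaks in runs (10.9 to 14.8) and in 3.10% outside (2.71 to 3.53). In developmental runs the share was 17.8% (14.6 to 21.3), in other runs 9.22% (6.94 to 11.9) and in matrix or cytoskeletal runs 5.88% (2.19 to 12.4).

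Just inside the threshold, the 73 runs of 5 peaks had a median fold of 3.73. Just outside it, the 124 runs of 4 peaks had a median of 3.72. Runs were found on all 19 autosomes, with 20 on chromosome 11, and their share of a chromosome's peaks ranged from 5.99% on chromosome 9 to 19.9% on chromosome 6, which carries the Hoxa cluster. Chromosome X had 45 peaks and no run.

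Summits in runs were less often within 1 kb of a gene end than other summits. Within 5 kb of one lay 73.6% of summits in runs, a share that is not given for other peaks. Within 1 kb of either end of a protein-coding gene lay 30.4% of summits in runs (27.8 to 33.1), against 64.7% outside runs (63.6 to 65.9) and 59.8% of all summits. Inside a gene but further from its ends lay 41.3% in runs and 24.8% outside. Outside genes lay 28.3% in runs (25.8 to 31.0), 10.4% outside runs (9.71 to 11.1) and 13.0% of all summits. The part of the joining rule in these shares was not tested. Exactly 1 protein-coding gene was reached by 127 of the 177 runs.

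**Figure D3:**
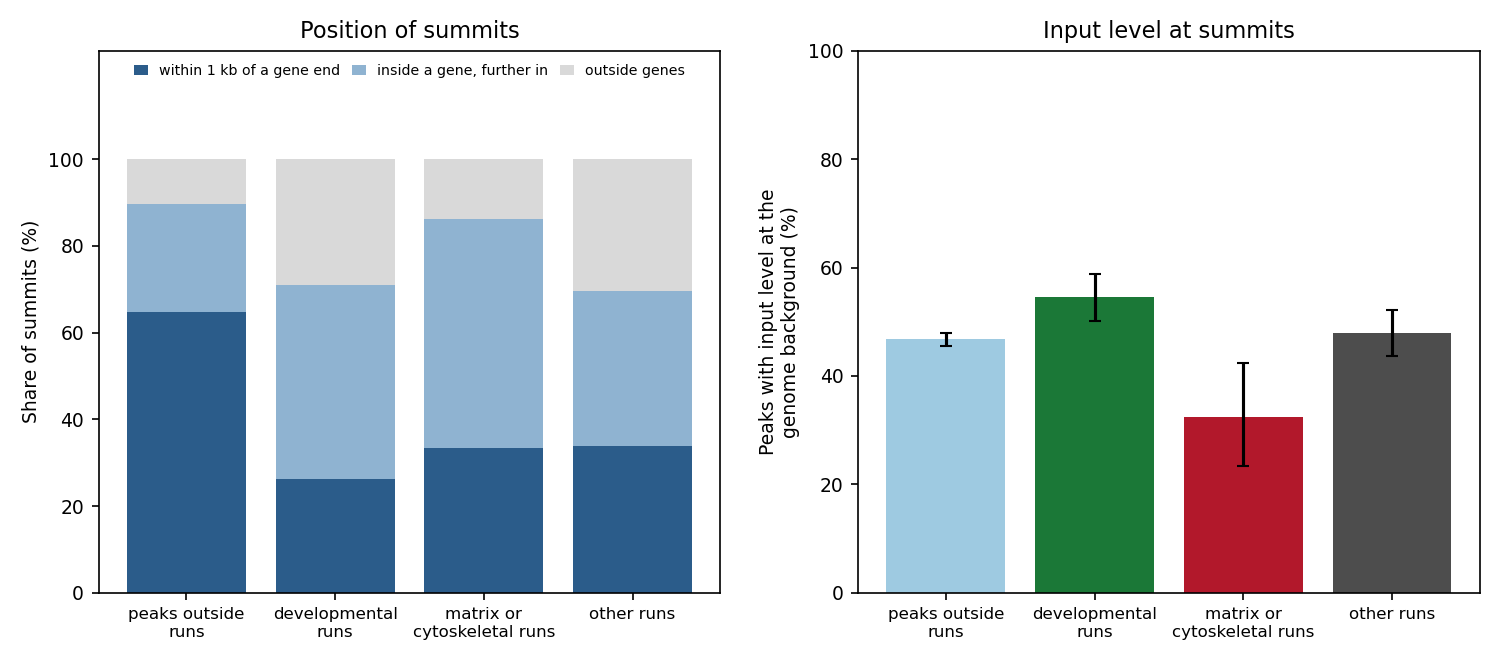
Left, shares of summits (%) within 1 kb of a gene end, further inside a gene, or outside genes, for peaks outside runs and for the 3 groups of runs. Right, share of peaks (%) whose expected input level equals the genome background, with exact binomial 95% intervals: 54.5% in developmental runs, 32.4% in matrix or cytoskeletal runs and 47.9% in other runs. The intervals treat peaks of 1 run as independent.

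The Hox genes formed the largest run. Runs reached 19 of 39 Hox genes (48.7%, interval 32.4 to 65.2), unevenly over the 4 clusters: 11 of 11 Hoxa genes, 4 of 10 Hoxb, 4 of 9 Hoxd and 0 of 9 Hoxc. The 19 genes lay in 5 runs, 1 of which reached 9 neighbouring Hoxa genes, with 0 summits at Hoxa13 itself. The interval treats genes as independent, which neighbours in a cluster are not, so it can be too narrow. The run from Hoxa3 to Hoxa13 (chr6:52191989-52268548) held 30 peaks over 76.6 kb with folds from 2.65 to 6.82, of which 16 were at the genome background of input. Its highest peak, at chr6:52253411-52255216 with a fold of 6.82 (5.28 to 8.66), lay between Hoxa11 and Hoxa13. Of its 30 summits, 12 lay outside protein-coding genes, most of them on both sides of Hoxa13, also near the non-coding gene Hottip. Signal was present from the 3' to the 5' part of the cluster rather than at 1 gene.

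Smaller Hox runs carried similar folds. At Evx2 and Hoxd13 (chr2:74652143-74669295), 12 peaks ranged from 3.12 to 6.01, and a gap of 13036 bp, just over the joining distance, separated them from 5 peaks at Hoxd9, Hoxd10 and Hoxd11 (3.20 to 4.44). The 6 peaks at Hoxb6 to Hoxb9 (chr11:96277283-96292034) ranged from 4.03 to 5.47, and all 6 were at the genome background of input. Evx1, which lies beyond the 5' end of the Hoxa cluster, had a run of 6 peaks with a top fold of 8.38. Of these summits, 5 lay outside protein-coding genes, the highest among them, and the 1 summit at Evx1 had a fold of 2.34.

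**Figure D4:**
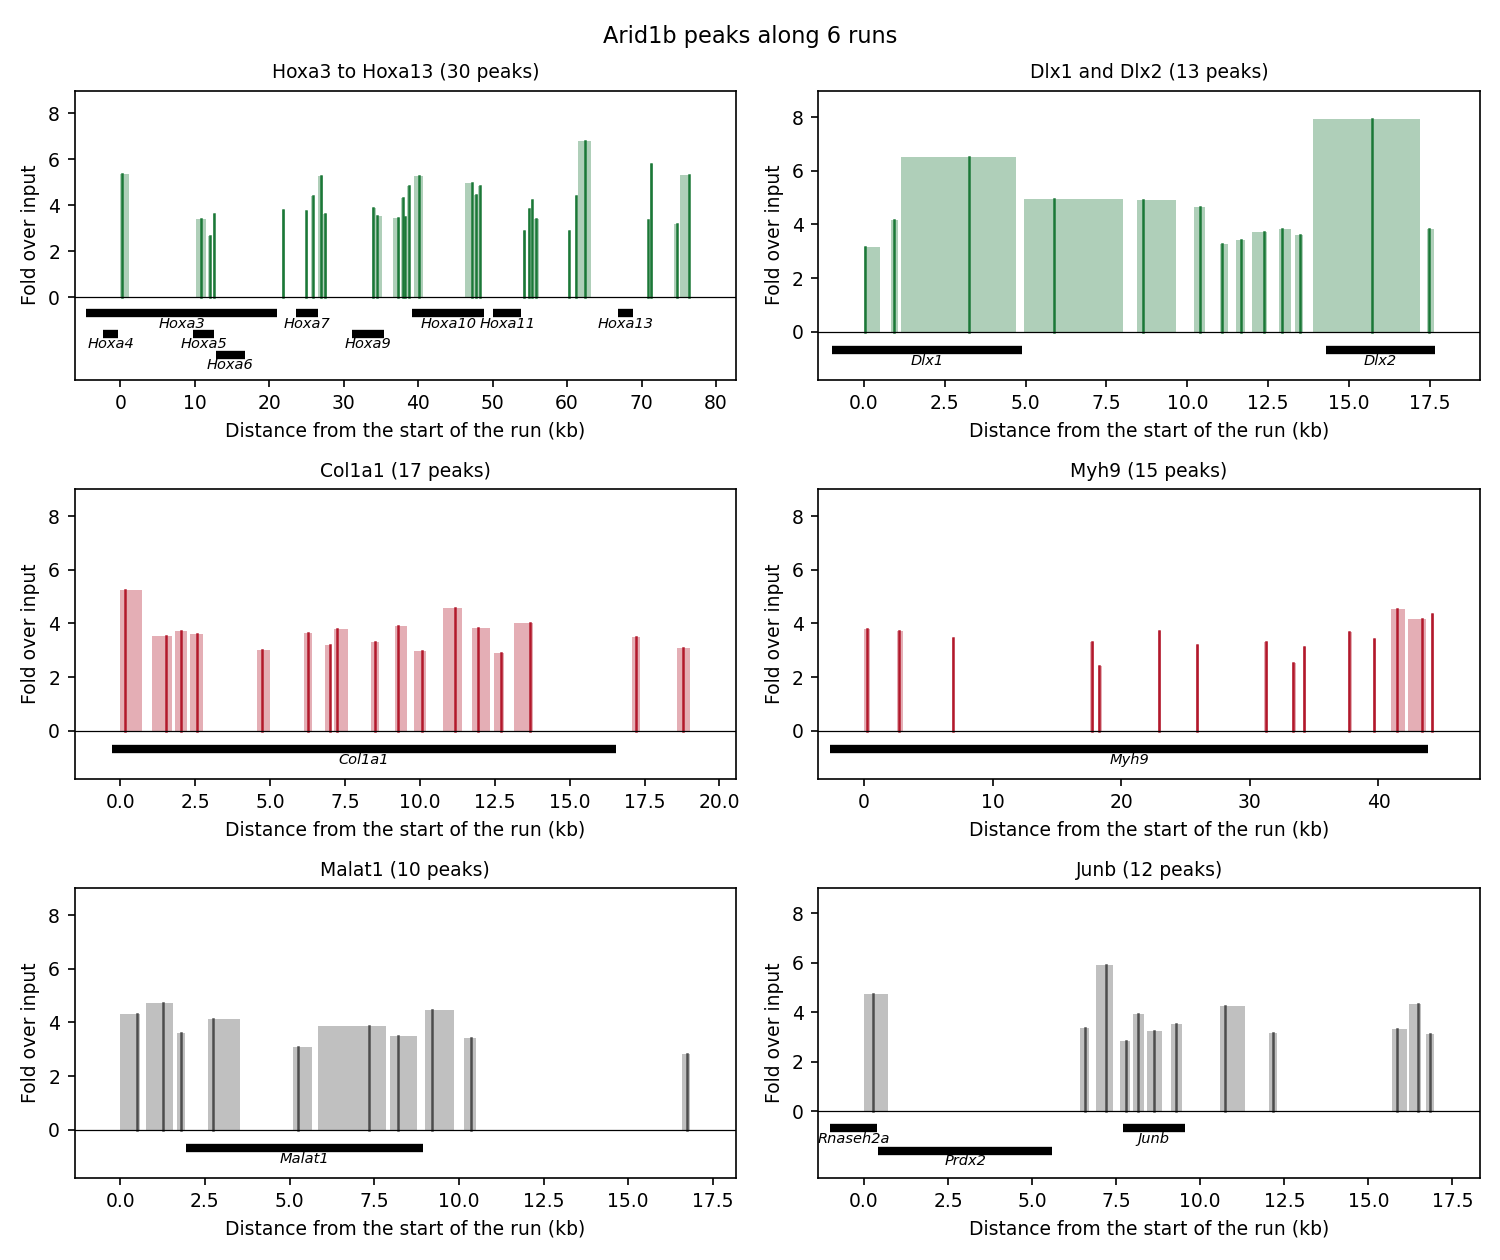
Fold over input (vertical) along 6 runs, with distance from the first peak in kb (horizontal); shaded boxes show peak width, dark lines the summit, and black bars the annotated genes, which are cut at the plot's edge. In the Dlx1 and Dlx2 run the boxes fill most of the span, whereas narrow peaks lie scattered through Myh9.

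Other homeobox genes were reached less densely but by more runs. Runs reached 39 of 167 (23.4%, 17.2 to 30.5), in 36 runs with 259 peaks. Together with Hox, 58 of 206 homeobox genes were reached (28.2%), beside the 1.14% of all protein-coding genes. Any peak in the gene or within 1 kb was found for 60.7% of homeobox genes but 26.1% of all protein-coding genes. Set against the number of genes with a peak, genes reached by a run came to 46.4% for homeobox genes and 4.38% for all. These ratios are upper limits for the share of genes with a peak, since a run can reach a gene that has none. Hoxa13 and Uncx, for example, had 0 summits in them or within 1 kb.

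Dlx genes, which pattern the jaw and act in tooth mesenchyme, gave the next largest developmental runs. Dlx1 and Dlx2 (chr2:71529103-71546739) shared 13 peaks over 17.6 kb that covered 79.4% of the span. Folds were up to 6.503 (5.01 to 8.31) in Dlx1, between 3.25 and 4.96 in the stretch between the genes, and up to 7.95 in Dlx2. The 3 widest of these peaks were 3544, 3315 and 3038 bp. Dlx5 and Dlx6 (chr6:6856496-6882679) also shared 13 peaks, with folds from 3.06 to 6.00, and 8 of those summits lay outside protein-coding genes. The Dlx5 and Dlx6 run kept 8 separate regions after joining peaks closer than 500 bp, while that of Dlx1 and Dlx2 kept 2.

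Regulators of tooth mesenchyme were often within runs. Of 30 listed, all of which also belong to the developmental lists, runs reached 15 (50%, 31.3 to 68.7), among them Dlx1, Dlx2, Dlx5, Dlx6, Foxd1, Hand2, Lhx8, Msx1, Osr2, Pax9, Pitx1, Prrx1 and Runx2. Lhx8, a LIM-homeobox gene of oral mesenchyme, had 10 peaks (chr3:154321518-154333946), which covered 80.9% of 12.4 kb and reached 7.02. Osr2, a zinc-finger gene that restrains tooth formation on the lingual side, had 9 peaks from 2.99 to 5.16, of which 8 were at the genome background of input. Msx1, needed for the tooth bud, had 9 peaks from 2.74 to 4.54.

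Runx2, the master regulator of bone and an early gene of dental mesenchyme, had 5 peaks from 3.20 to 6.78. Pax9, needed for tooth development past the bud stage, had 6 from 3.38 to 5.22. Prrx1 had 6 from 3.14 to 4.52 and Foxd1 had 9 from 2.75 to 5.37, with up to 4.44 in Foxd1 or within 1 kb. Top folds were lower at Hand2, with 6 peaks up to 3.72, and Pitx1, with 5 peaks up to 3.94.

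Runs at other developmental transcription factors included mesenchymal and visceral genes. Runs reached 34 of 199 (17.09%, 12.1 to 23.0). Tbx3, a T-box repressor of limb and heart, had 10 peaks (chr5:119668029-119683250) from 2.82 to 6.20. Foxf1, a forkhead target of Hedgehog signalling in visceral mesenchyme, had 10 (chr8:121073369-121089829) from 2.65 to 5.47, with 1 of the 10 at the genome background of input. The run of 6 at Gata6 held the highest fold among the runs of this list, 8.98 (7.21 to 11.1). That summit lay over 1 kb from the gene, and summits in Gata6 or within 1 kb reached 4.13. The lowest top folds among all runs were those of Sall1, 3.51 over 7 peaks, and Irx5, a homeobox gene, 3.56 over 5 peaks.

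Several further regulators of mesenchyme and of its neural crest origin had runs. Tfap2b and Tfap2a, AP-2 factors of the neural crest and face, had 10 peaks from 2.89 to 5.23 and 6 peaks from 2.89 to 6.40. Nr2f2, an orphan nuclear receptor of cranial neural crest, had 8 from 3.10 to 5.48, and Zeb2, a repressor of E-cadherin, had 7 from 2.71 to 5.58. Snai1, another such repressor, had 5 from 3.002 to 3.65, none of them at the genome background of input. Runx1, a relative of Runx2, had 8 peaks within 4.87 kb, which joined into 1 region, with folds from 3.61 to 5.76. Tbx2, the paralogue of Tbx3, had 8 from 2.45 to 6.34, and, as at Foxf1, 1 peak was at the background. Smad7, an inhibitor of TGF-beta signalling, had 7 peaks from 3.10 to 6.30.

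Developmental ligands and antagonists, in contrast to transcription factors, were almost absent. Runs reached 1 of 102 (0.980%, 0.0248 to 5.34), namely Inhba, the activin A subunit, with 5 peaks from 3.14 to 3.92. This share is close to the background of 1.14%. Of the Hedgehog pathway, 1 of 22 genes was in a run: Ptch1, the receptor and a target of the pathway, with 5 peaks from 2.98 to 5.23. Cell cycle arrest genes gave 3 of 20: Cdkn1b (p27) with 6 peaks up to 6.20, Cdkn2a with 5 up to 5.68 and Gadd45b with 5 up to 4.503. In the gene or within 1 kb, the highest folds were 4.26 at Cdkn1b, 5.03 at Cdkn2a and 4.503 at Gadd45b. None of the 28 SWI/SNF subunit genes was in a run (interval up to 12.3%), and 20 of them had a peak. At the background of 1.14% a list of this length would mostly hold no gene in a run, so this count does not separate it from the background.

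**Figure D5:**
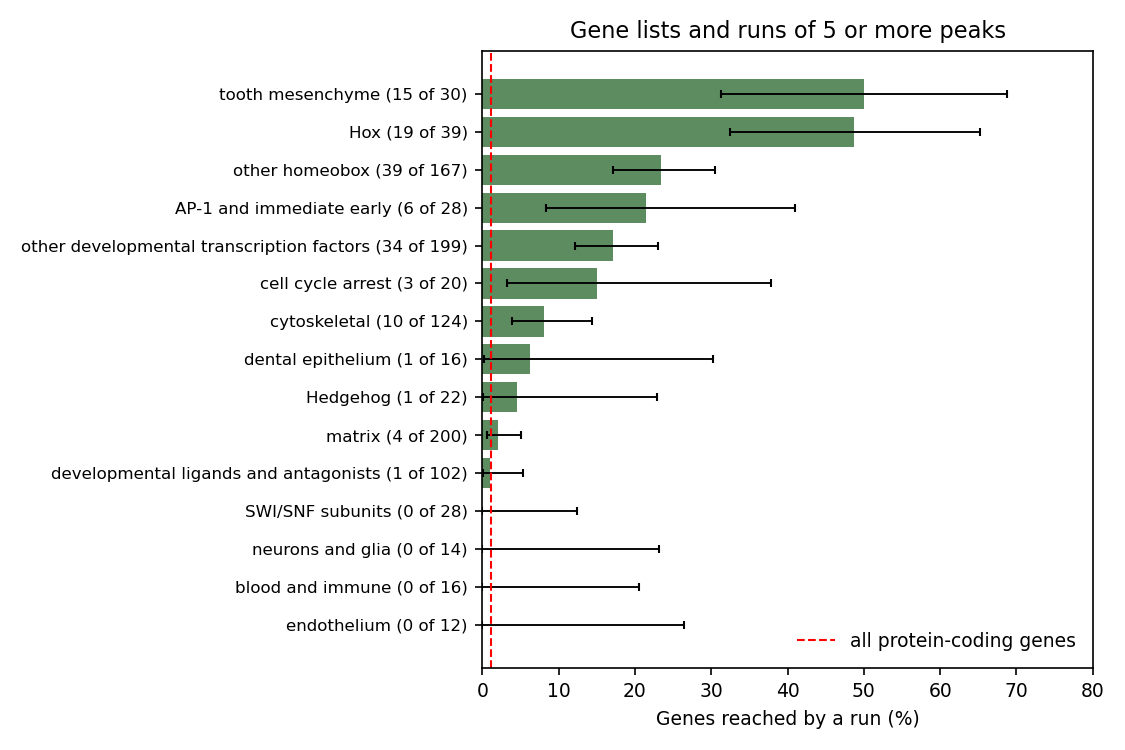
Share of genes of each list reached by a run (%, horizontal) with exact binomial 95% intervals, 1 bar per list, and a dashed line at the 1.14% of all protein-coding genes. Tooth mesenchyme regulators (50%) and Hox genes (48.7%) lie highest, while developmental ligands lie near the background. The intervals treat genes as independent, although the 19 Hox genes lay in 5 runs.

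Runs were also found at regulators of other lineages. Tlx3, a homeobox gene of sensory and hindbrain neurons, had 6 peaks (chr11:33196827-33205238) with a top fold of 9.32 (7.56 to 11.4), the highest of all developmental runs. Otx2 and Otp, homeobox genes of the forebrain, had 9 and 8 peaks, Foxa1, an endodermal forkhead gene, had 8, and Nkx2-5, a heart homeobox gene, had 6. After their values were seen, 2 sets of regulators were picked: 23 runs with genes of facial mesenchyme and 23 runs with neural genes. The sets leave out many developmental runs, such as those of Hox genes. The neural set also takes in runs counted as other, such as those at Neurog2 and Fezf1. Median fold was 3.72 in the facial mesenchyme set and 3.92 in the neural set. Of their peaks, 53.8% and 60.7% were at the genome background of input, and 24.7% and 40% of summits lay outside genes. Of listed markers of other cell types, runs held 1 of 16 for dental epithelium (6.25%, 0.158 to 30.2), and 0 of 12, 0 of 16 and 0 of 14 for endothelium, blood and immune cells, and neurons and glia (intervals up to 26.5%, 20.6% and 23.2%). At the background of 1.14%, lists of this length would mostly hold no gene in a run, so these counts do not separate the lists from the background.

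Type I collagen gave the run with the most peaks in the matrix or cytoskeletal group. Col1a1, the alpha 1 chain of type I collagen, held 17 peaks (chr11:94936506-94955537) over 19.0 kb, and 15 of the 17 summits lay in the gene. The highest fold, 5.27 (3.94 to 6.91), was at the first peak, at 1 end of the gene, and the other 16 peaks lay between 2.90 and 4.57. Only 5 of the 17 were at the genome background of input. Col1a2, the partner chain, had 5 peaks (chr6:4505929-4520198) from 3.20 to 3.82, and all 5 were at that background. Of 200 matrix genes, runs reached 4 (2%, 0.548 to 5.04), the others being Adamtsl4 and Ccn1.

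Of 124 cytoskeletal genes, runs reached 10 (8.06%, 3.94 to 14.3), an interval that overlaps that of the matrix genes. At least 1 peak, up to 1 kb away, was found for 55.6% of cytoskeletal and 25.5% of matrix genes, and of those genes 14.5% and 7.84% were in a run. Myh9 held 15 peaks (chr15:77798298-77842626) over 44.3 kb, with folds from 2.41 to 4.53, and 14 of the summits lay inside the gene. Only 3 of these 15 peaks were at the genome background of input. Its peaks were sparse, at 3.38 per 10 kb against 8.93 per 10 kb at Col1a1 and 10.3 per 10 kb at Actb, so that 12 separate regions remained after joining. Beta-actin (Actb) and gamma-actin (Actg1) each had 7 peaks, with top folds of 4.95 and 4.96. Tpm1, which encodes a tropomyosin, had 6 up to 4.80, and Plec, the cytoskeletal linker plectin, had 6 up to 4.27.

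The highest fold of the group, 6.82, was at the myosin light chain genes Myl12a and Myl12b, where 5 peaks ranged upward from 3.13. Lmna, the gene of lamin A and C, had 5 peaks from 2.52 to 4.10. In a further 3 runs the listed gene shared the run with others. The 10 peaks at chr3:95651036-95688187 spanned Mcl1, an anti-apoptotic gene, and Adamtsl4, and 2 of the summits were at Adamtsl4. The 8 peaks at chr17:35812679-35841753 spanned the tubulin gene Tubb5 and the early response gene Ier3, where the top fold of 5.89 lay. The 5 peaks at Pfn1 (profilin) also reached Rnf167, Slc25a11 and Eno3.

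The groups of runs differed in the input level behind their peaks. The expected input level is the one that the peak caller used at a summit, either the genome background (a level of 8.68) or a higher local level. It was at the genome background in 47.2% of all peaks, in 49.5% of peaks in runs (46.7 to 52.4) and in 46.8% outside. Developmental runs had 54.5% (50.2 to 58.8), other runs 47.9% (43.7 to 52.2), and matrix or cytoskeletal runs 32.4% (23.4 to 42.3), which is 33 of 102 peaks. Within that last group, the 4 runs with a matrix gene had 17 of 38 (44.7%), near the share of all peaks, and the 9 with a cytoskeletal gene had 16 of 64 (25%). Neighbouring peaks of 1 run are not independent, so these intervals can be too narrow. All 6 peaks at Hoxb6 to Hoxb9 were at the background, for example, and 0 of 6 at Tlx3. Counted by run, less than 50% of peaks were at the background in 24 of 75 developmental, 10 of 13 matrix or cytoskeletal and 40 of 89 other runs. A summit outside genes was less common in matrix or cytoskeletal runs (13.7%) than in developmental (29.0%) or other runs (30.4%). Median folds, which already divide by the input level, were 3.62, 3.74 and 3.75. Local input moved with the gene group, and its part in the runs was not tested.

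The 89 other runs included early response genes. AP-1 and immediate early genes were reached in 6 of 28 cases (21.4%, 8.30 to 41.0): Dusp1, Ier2, Ier3, Ier5l, Junb and Zfp36. Among them, Ier3 lay in the run at Tubb5, which was counted as matrix or cytoskeletal. Of these 28 genes, 24 had a peak. Junb (chr8:84969207-84986163) shared with Prdx2 and Rnaseh2a a run of 12 peaks from 2.83 to 5.89, of which 2 were at the genome background of input and 5 lay outside genes. Zfp36, which encodes an mRNA-destabilising protein induced by serum, shared with Plekhg2, Med29 and Paf1 a run of 10 peaks from 2.57 to 4.34. Dusp1, a phosphatase that switches off MAP kinases, had 9 from 2.57 to 4.24. Irf2bp2 (chr8:126584237-126603669) had 12 from 2.86 to 4.42, and Midn, an early response gene linked to protein turnover, had 10 from 2.45 to 4.96.

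Chromatin regulators were also among the other runs. Brd2, a reader of acetylated histones, had 7 peaks (chr17:34118392-34123068) from 2.99 to 6.10, which joined into 1 region and of which 0 were at the genome background of input. Chd2, a chromatin remodeller, had 8 peaks from 3.20 to 6.84, shared with the non-coding gene Chaserr, and 5 were at that background. Kdm6b, which removes the repressive mark H3K27me3, had 5 peaks from 2.52 to 4.96, and the H3K4 methyltransferase family gene Kmt2e had 5 from 3.61 to 5.27. Signalling feedback genes formed a further set: Spry2 and Dusp6, both inhibitors of receptor tyrosine kinase signalling, had 5 and 6 peaks with the same top fold of 4.54, and Pmepa1, an inhibitor of TGF-beta signalling, had 6 peaks from 2.57 to 4.86, with 0 at the background. Among genes of receptors were also Igf1r, with 5 peaks up to 5.68 in 1 joined region, and Nrp2, with 5 up to 5.16.

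Long non-coding RNA genes lay under several runs. A run of 10 peaks over Malat1 (chr19:5793743-5810578) had folds from 2.83 to 4.74, with 2 of the 10 at the genome background of input. At Neat1, the scaffold of paraspeckles, 10 peaks (chr19:5833773-5850204) ranged from 3.01 to 4.93, and 7 were at that background. A gap of 23194 bp separated these neighbours. The highest peak of the Neat1 run was 6850 bp wide. Malat1 and Neat1 are not protein-coding, so their summits counted as outside genes. Mir100hg, Lncpint, Carmn and Dnm3os, all non-coding, also had runs of 8, 6, 6 and 6 peaks. A run of 10 peaks at chr15:85653363-85681510 lay 53400 bp from the nearest protein-coding gene, Ppara, with folds from 2.89 to 5.07 and 8 peaks at the background. In all, 7 runs reached no protein-coding gene.

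Genes with abundant transcripts in most cells formed another subset, picked after the values were seen, with 10 runs, among them those at Ubb, Ftl1, Ptma, Hsp90ab1, Actb, Actg1, Malat1 and Neat1. In these runs 34.8% of 69 peaks were at the genome background of input. In 15 runs at early response genes, chosen in the same way, it was 43.7% of 103 peaks. A further 9 runs counted as other held developmental regulators absent from the list, such as Neurog2, Sp8, Sp9, Sim1 and Fezf1, and had 63.9% of 61 peaks at the background. Single runs of the 9 varied, with 2 of 6 peaks at the background at Sp8 and 4 of 8 at Sp9.

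The 2 highest folds in runs were not at developmental genes of the list. Igf2bp3, which encodes an oncofetal RNA-binding protein, had a peak 8992 bp wide (chr6:49214745-49223736) with a fold of 12.6 (10.5 to 15.03) in a run of 5. Bcl6, a transcriptional repressor, had one of 12.495 (10.4 to 14.9) at chr16:23987845-23988968, beside 4 peaks between 3.06 and 4.34. They ranked 3 and 4 in the whole list. Cic, a transcriptional repressor downstream of receptor tyrosine kinases, had 8.67 (6.93 to 10.7). Density was highest in a run beside Tshz3, with 5 peaks in 2.57 kb, and lowest at Zdbf2, an imprinted gene, with 6 peaks in 30.3 kb. Of the 5 summits beside Tshz3, 2 lay within 1 kb of that gene and none inside it.

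MicroRNA genes lay within 1 kb of 9 runs. Of 1005 hairpin genes in the RefSeq table, 13 (1.29%) did, a share close to the 1.14% of protein-coding genes reached by a run. The mature sequences of those with known roles in mesenchyme or Hox clusters are given below, with the seed (bases 2 to 8), which pairs with target mRNAs, in capitals.

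miR-196b-5p: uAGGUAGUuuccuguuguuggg
miR-21a-5p: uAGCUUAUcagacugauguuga
miR-125b-5p: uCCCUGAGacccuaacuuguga
miR-199a-5p: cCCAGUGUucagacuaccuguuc
miR-214-3p: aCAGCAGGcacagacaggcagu
miR-23a-3p: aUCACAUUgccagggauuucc
miR-27a-3p: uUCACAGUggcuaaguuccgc
miR-24-3p: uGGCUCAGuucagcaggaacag

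No pair of these 8 has the same seed. Mir196b sits inside the Hoxa run between Hoxa9 and Hoxa10, and miR-196b targets Hox mRNAs. Only 1 end of its hairpin overlapped a peak, with a fold of 3.51 (2.45 to 4.89). The miR-196b-5p sequence lay just outside that peak. Mir21a, at the end of Vmp1, had the strongest peak of these, at 5.78 (4.38 to 7.496), in a run of 7. Mir125b-1, within Mir100hg, was under a peak of 2.99 (2.02 to 4.28) in a run of 8. Mir214 was under a peak of 3.51 and Mir199a-2, in the same run of 6 over Dnm3os, lay 903 bp from a peak of 4.73 (3.503 to 6.26). The cluster of Mir23a, Mir27a and Mir24-2 was under 1 peak of 3.30 (2.28 to 4.65). The intervals of Mir21a and Mir125b-1 do not overlap, while those of the folds in between overlap with their neighbours.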

How the data were processed

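One Arid1b ChIP library and 1 input library were compared. Per the submitters' processing notes, FastQC 0.11.8, Bowtie2 2.2.5, Picard, MACS2 2.1.1 and mm10 were used. For the roles of these tools, filters, duplicates and read totals, the sources used here state nothing. The authors' deposited narrow peak list gives, per peak, a score, a fold (the linear ratio to input at the summit), and p-value and q-value, both as -log10. The deposited score is 10 times the -log10 p without decimals and was not used. The lowest -log10 p was 5.02.

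Runs and gene groups were computed in Python 3.11.15 with pandas 2.3.3, numpy 2.4.6 and scipy 1.17.1, with figures in matplotlib 3.10.9. Pileup and expected input level were recovered from fold and p by the MACS2 formulas, and the formulas held within 0.001 in 100% of peaks. A level within 0.001 of 8.68 was called the genome background. The peak of median fold in runs had a pileup of 35 fragments, which gives a 95% interval of its fold from 2.62 to 5.13. Fold intervals are exact Poisson with the input level held fixed. Share intervals are exact binomial (Clopper-Pearson). They treat peaks of 1 run, and neighbouring genes of 1 cluster, as independent, and so can be too narrow. Fragments are not necessarily independent molecules. The scripts were tested on simulated data.

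Genes came from RefSeq GRCm38.p6, without strand or exons. Promoter sequences cover 17492 of 21887 protein-coding genes (79.9%) and none on chromosome 18, and 5 motifs were searched on both strands. They were TGANTCA for AP-1 proteins, GGAATG for the TEAD family, TAATTA as the homeodomain core, CCAAT for nuclear factor Y, and TATAAA for the TATA-binding protein. Coordinates are 1-based.

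The members, gene lists and alternatives were chosen with earlier results of these data known. Gene lists are those of the text. Named runs were the 8 with most peaks in each group, those with the 5 highest folds, the highest and lowest density and the 2 lowest top folds. Genes of the Hox, Hedgehog, tooth mesenchyme and AP-1 lists in runs were also named. Some of the genes so selected are not reported here. Other names, and the subsets so described, were chosen after their values were seen. Alternatives changed the gap, the peak number, the peak threshold, the gene distance and the order of lists.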

Additional observations from a re-analysis of the deposited data

How the results depend on the processing

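With 1 library per group, no replicate could be left out. No paired analysis was possible because each group has 1 library. Of 16 alternatives, 15 were planned. No value moved beyond its limit when distance was counted between summits, with no margin for genes, or when the gene with most summits decided. The same held when further developmental regulators were added after seeing the data. Putting matrix genes first could move no value, because no run held genes of both kinds. Runs fell from 177 to 44 with 8 or more peaks (442 peaks in all), 42 with peaks at the genome background of input (252 peaks), 27 with peaks under 500 bp apart joined (169 peaks) and 14 with a fold of at least 4 (84 peaks), and rose to 301 with 4 or more peaks.

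Developmental, matrix or cytoskeletal, and other runs then numbered 23, 4 and 17 (8 peaks), 26, 2 and 14 (background), 11, 5 and 11 (joined) and 10, 0 and 4 (fold). With 4 peaks, 21 matrix or cytoskeletal and 174 other runs were found, and with a gap of 5 kb, 7 matrix or cytoskeletal runs.

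The share of protein-coding genes reached was 0.717% (5 kb gap), 1.88% (25 kb gap), 1.94% (4 peaks), 0.311% (8 peaks), 0.260% (joined), 0.905% (-log10 q of at least 5), 0.1097% (fold), 0.260% (background) and 1.38% (genes within 10 kb). For homeobox genes it was 17.0% (5 kb gap), 34.95% (4 peaks), 12.1% (8 peaks), 9.71% (joined), 7.28% (fold) and 13.1% (background). For matrix and cytoskeletal genes it was 4.32% as reported, 2.16% (5 kb gap), 1.23% (8 peaks), 1.54% (joined), 0% (fold) and 0.617% (background). The homeobox share stayed above that of all genes in each of these.

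Summits within 1 kb of a gene end were 34.8% (25 kb gap), 35.8% (4 peaks), 24.7% (8 peaks), 21.4% (fold) and 22.6% (background), and 17.6% within 500 bp or 73.6% within 5 kb. Summits outside genes were 24.6% (4 peaks), 38.0% (8 peaks), 34.3% (joined) and 38.9% (background). Peaks at the genome background of input were 55.6% (joined), 61.9% (fold) and 100% by construction when only those were used. The cause of these shifts, beyond fewer or more peaks and genes entering, was not tested. The share at the background was lower in matrix or cytoskeletal than in developmental runs under the 7 peak and gap alternatives in which both had peaks (26.8% to 38.5% against 51.8% to 63.9%), and with a fold of at least 4 no matrix or cytoskeletal run was left.

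Depth limits single peaks: most folds cannot be told apart from the median.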
